A study of Mus musculus with 4 samples.

Results

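Activins, follistatins and activin receptors were followed in cells sorted from chimeric mouse kidneys. The set held 9 genes: Fst, Fstl1, Fstl3, Inhba, Inhbb, Acvr1, Acvr1b, Acvr2a and Acvr2b. They are read by 19 of the 45101 probe sets of the array, every probe set that the platform annotation gives to 1 of these genes alone. A further probe set is annotated to both Orc4 and Acvr2a. It did not exceed the control level of any array and was left out. The family was selected on differences seen in the same contrast, the arrays of GFP-positive cells labelled Tfrc-null against the arrays of GFP-negative wildtype cells. The members' differences are therefore given as a description, with no test.

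The tested cells were GFP-positive and descended from embryonic stem cells that carried a deletion of Tfrc, the gene of transferrin receptor 1 (Tfrc-/- in the labels). Between 3 and 5 of these stem cells had been placed in each wildtype blastocyst, and the comparison cells were the GFP-negative host cells of the resulting chimeric kidneys, taken on embryonic day 15.5. Each group has 2 arrays, which the labels call biological replicates without saying which embryos they came from. Standard deviations (SD) therefore measure the spread between these samples. Standard errors come from limma, which draws the spread of each probe set towards a value shared over all probe sets. No array holds donor cells with Tfrc intact, and the deletion and other features of the donor cells cannot be told apart. Kidneys were dissociated with collagenase and trypsin and sorted by GFP and not by cell type, so each array pools all kidney cells of one origin.

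Activins are secreted dimers of the transforming growth factor beta (TGF-beta) superfamily. They bind a type II receptor, which recruits and phosphorylates a type I receptor, which in turn phosphorylates SMAD2 and SMAD3. Follistatin is a secreted glycoprotein that wraps around activin and keeps it from its receptors. In organ culture of the rodent kidney and nephric duct, activin restrains outgrowth and branching of the ureteric bud, and follistatin relieves that restraint.

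The label of the first group was not borne out by its Tfrc signal. Of 6 Tfrc probe sets, 5 lay above the control level on all arrays. All 5 had higher means in the labelled Tfrc-null group, with log2 differences of 0.47 to 1.42. Groups did not overlap for the probe set at 1.42 (SE 0.46) and another at 0.47 (SE 0.24), and overlapped for the rest of the 5. The sources used here do not give the deleted stretch, and probes outside it check nothing. The group is called "labelled Tfrc-null", and each direction rests on that label. The control level of an array is the highest value among its 27 Bacillus subtilis control probe sets. It was 7.40 and 7.77 on the labelled Tfrc-null arrays and 7.18 and 9.08 on the wildtype arrays. Values are intensities on a linear scale. Intensities of different probe sets are not compared with each other, because probes differ in how strongly they bind.

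Follistatin was the member that stood apart. Its leading probe set, the one of a gene with the highest mean log2 intensity, read 281.4 and 343.1 on the labelled Tfrc-null arrays, against 40.6 and 67.3 on the wildtype arrays. Both labelled Tfrc-null values lay above both wildtype values, and the lowest of the first was 4.18 times the highest of the second. The group means were 312.3 ± 43.6 and 53.97 ± 18.9 (SD, n = 2 each), a log2 difference of 2.57 with a standard error (SE) of 0.30, or 5.94-fold higher. Replicates differed by 0.29 between the labelled Tfrc-null arrays and by 0.73 between the wildtype arrays on the log2 scale. Between arrays of the same replicate number the difference was 2.79 for number 1 and 2.35 for number 2. It was number 7 of 18194 genes when these were ordered from the highest difference down. In such pooled samples, fewer or more cells of a type and less or more RNA per cell cannot be told apart.

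The second Fst probe set did not show that difference. It was dim, at 12.6 and 14.7 on the labelled Tfrc-null arrays and 10.8 and 13.2 on the wildtype arrays. These values were above the control level on all 4 arrays but below the array medians, which were 17.5 to 19.3. The groups overlapped, and the log2 difference was 0.19 (SE 0.21). The account of Fst thus rests on 1 probe set. With both probe sets averaged, the dim one counting equally, the log2 difference of Fst was 1.38.

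The follistatin relatives had small differences. Fstl3 encodes a secreted protein that, like follistatin, binds activins and myostatin. Its single probe set read 51.5 and 46.9 on the labelled Tfrc-null arrays and 34.8 and 49.6 on the wildtype arrays, so that wildtype replicate 2 lay between the labelled Tfrc-null values. The log2 difference was 0.24 (SE 0.24), with 0.57 for replicate number 1 and -0.08 for number 2. Without wildtype replicate 1 it was -0.01.

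Fstl1 encodes a secreted glycoprotein with a follistatin domain that is made by mesenchymal cells and is known in mouse development for restraining bone morphogenetic protein (BMP) signals. Its leading probe set read 3739 and 3693 on the labelled Tfrc-null arrays and 3776 and 3154 on the wildtype arrays. These groups overlapped, with a log2 difference of 0.11 (SE 0.19). The other Fstl1 probe set read 1926 and 1695 on the labelled Tfrc-null arrays and 1506 and 1501 on the wildtype arrays. Here the groups did not overlap, but the log2 difference of 0.27 (SE 0.18) was small. Replicates differed by 0.18 between the labelled Tfrc-null arrays and by 0.005 between the wildtype arrays on the log2 scale.

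**Figure D1:**
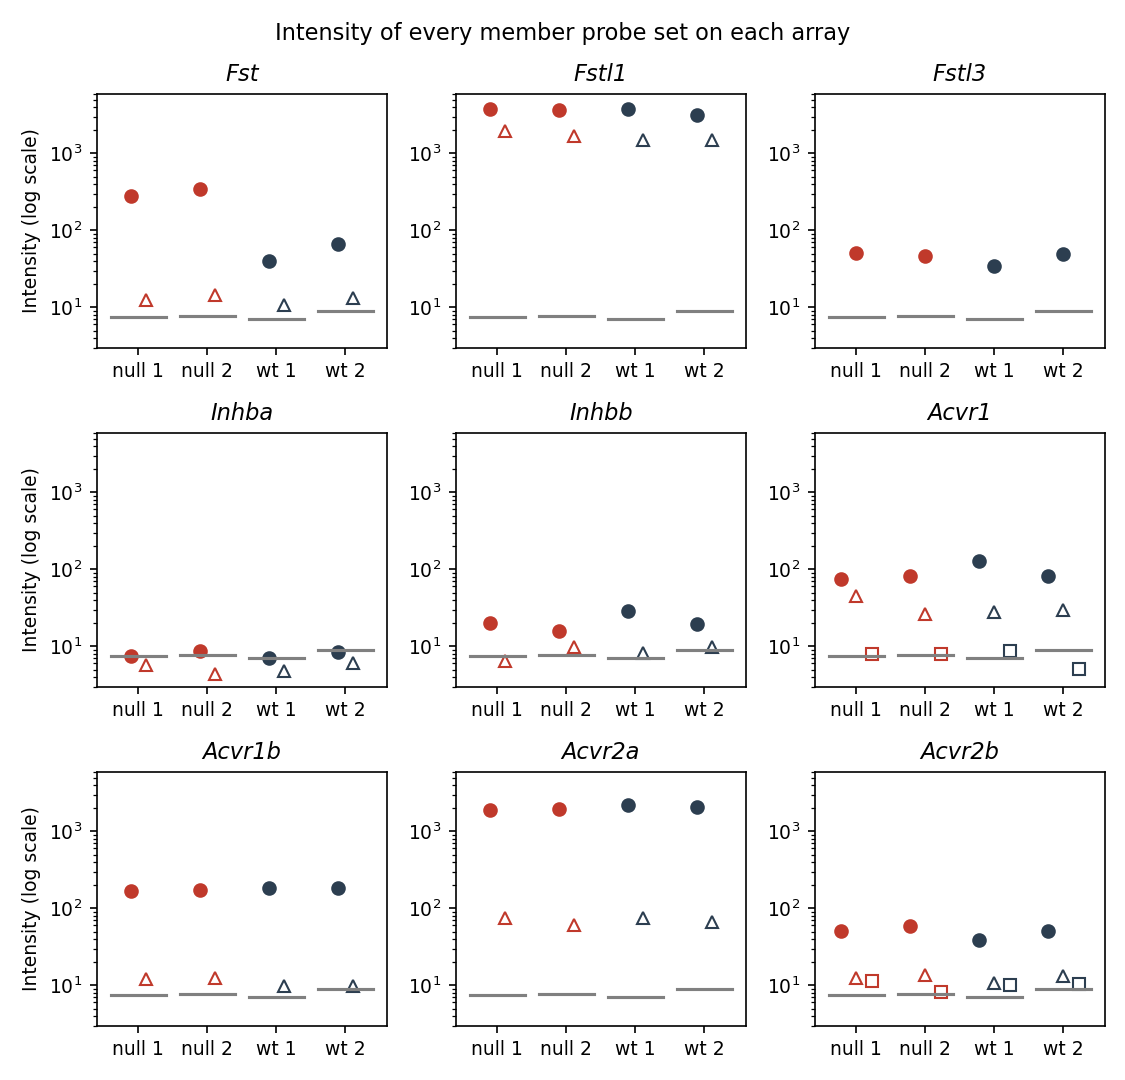
Intensity (log axis) of all 19 member probe sets on each array, labelled Tfrc-null replicates 1 and 2 (null 1, null 2, red) and wildtype replicates 1 and 2 (wt 1, wt 2, dark blue). Filled circles are the leading probe set of a gene, open triangles and squares its other probe sets, and grey bars the control level of the array. Fst reads 281.4 and 343.1 against 40.6 and 67.3 by its leading probe set, while Inhba lies at about the control level throughout.

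Signal for the activin subunits was weak. Inhba encodes the beta A subunit, whose dimer is activin A. Its leading probe set read 7.45 and 8.80 on the labelled Tfrc-null arrays, just above their control levels, and 6.98 and 8.48 on the wildtype arrays, both below theirs. The groups overlapped and no fold is given. Its second probe set read 5.80 and 4.44 on the labelled Tfrc-null arrays and 4.81 and 6.07 on the wildtype arrays, not above the control level of any array. Inhba was thus not measured well enough on these arrays to show a difference of either sign.

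Inhbb encodes the beta B subunit of activin B. Its leading probe set read 20.0 and 15.7 on the labelled Tfrc-null arrays and 29.0 and 19.7 on the wildtype arrays. All 4 values were above the control level and the groups overlapped narrowly, since labelled Tfrc-null replicate 1 exceeded wildtype replicate 2. The log2 difference of -0.43 (SE 0.27) was the lowest of the 19 member probe sets. It was -0.53 for replicate number 1 and -0.33 for number 2, and ranged from -0.71 without wildtype replicate 2 to -0.15 without wildtype replicate 1. The second Inhbb probe set read 6.48 and 9.70 on the labelled Tfrc-null arrays and 8.21 and 9.97 on the wildtype arrays, above the control level on 3 of the 4, with a log2 difference of -0.19 (SE 0.27).

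The type II receptors, which bind activin first, were close between the groups. Acvr2a read 1879 and 1972 by its leading probe set on the labelled Tfrc-null arrays and 2209 and 2093 on the wildtype arrays. The values were lower without overlap on the labelled Tfrc-null arrays, by a log2 difference of -0.16 (SE 0.18), or 1.12-fold. The second Acvr2a probe set read 74.1 and 61.3 on the labelled Tfrc-null arrays and 76.2 and 65.8 on the wildtype arrays, and the groups overlapped (log2 difference -0.07, SE 0.21).

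The related type II receptor Acvr2b read 50.8 and 58.7 by its leading probe set on the labelled Tfrc-null arrays and 39.1 and 51.5 on the wildtype arrays. Wildtype replicate 2 lay above labelled Tfrc-null replicate 1, and the log2 difference was 0.28 (SE 0.23). Its other 2 probe sets were dim, between 8.25 and 13.6 on all arrays, with log2 differences of 0.13 and -0.09.

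The type I receptors also differed little. Acvr1b encodes ALK4, the type I receptor through which activins signal to SMAD2 and SMAD3. By its leading probe set it read 170.7 and 174.2 on the labelled Tfrc-null arrays and 186.6 and 185.2 on the wildtype arrays. Replicates differed by only 0.03 and 0.01 on the log2 scale and the groups did not overlap, yet the log2 difference was only -0.11 (SE 0.18). That SE reflects mainly the spread that limma shares over all probe sets. The second Acvr1b probe set differed the other way, at 12.1 and 12.5 on the labelled Tfrc-null arrays and 9.92 and 9.87 on the wildtype arrays (log2 difference 0.31, SE 0.18). No direction can be given for Acvr1b, because its probe sets disagree.

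Acvr1 encodes ALK2, a type I receptor that mainly serves BMPs and signals to SMAD1 and SMAD5. Its leading probe set read 76.1 and 81.2 on the labelled Tfrc-null arrays and 129.8 and 81.7 on the wildtype arrays. The groups were parted only by the small step between 81.2 and 81.7, and wildtype replicate 1 carried the difference of -0.39 (SE 0.27). Without that array the log2 difference was -0.06. A second Acvr1 probe set read 45.5 and 26.6 on the labelled Tfrc-null arrays and 27.8 and 29.3 on the wildtype arrays (log2 difference 0.29, SE 0.30). The third lay at 8.05 and 7.89 on the labelled Tfrc-null arrays and at 8.83 and 5.15 on the wildtype arrays, the last below the control level. Acvr1 probe sets thus also disagreed in sign.

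**Figure D2:**
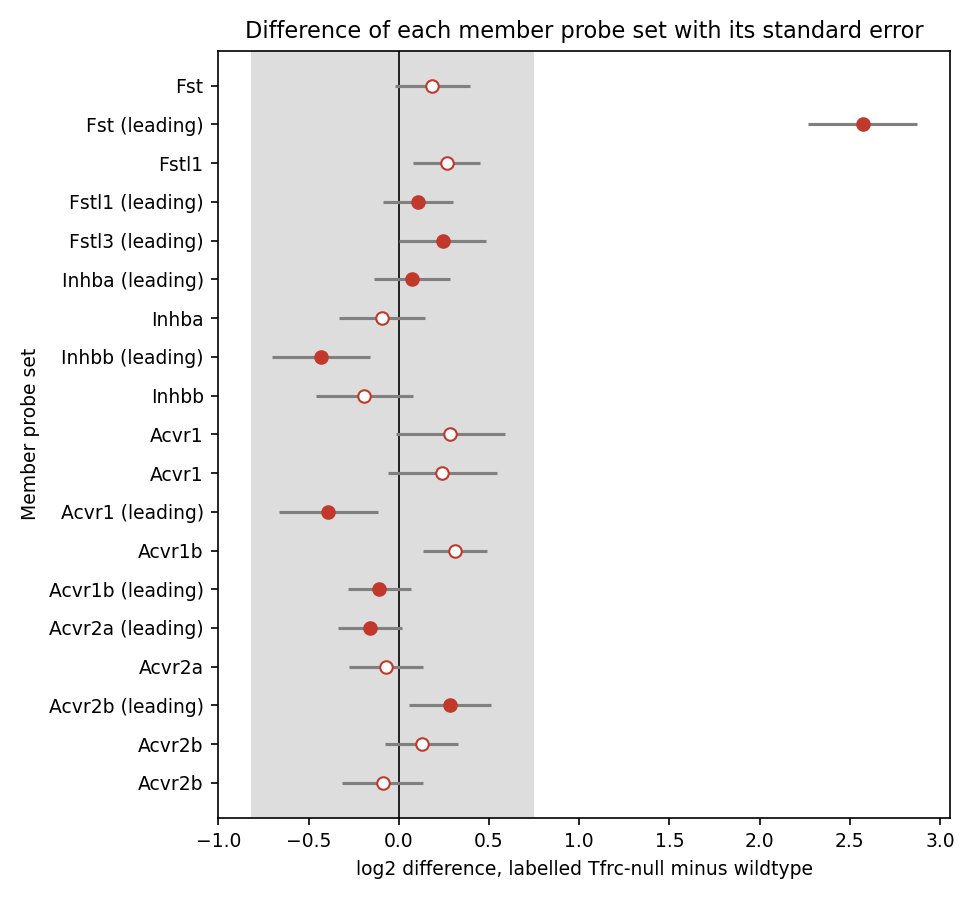
Difference of each member probe set on the log2 scale (labelled Tfrc-null minus wildtype), with the limma standard error as a bar. Filled points are leading probe sets, and the grey band holds the middle of the differences of all 18194 genes, from -0.82 to 0.74. The leading Fst probe set at 2.57 is the only 1 of the 19 outside the band.

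Of the 19 member probe sets, 15 lay above the control level on all 4 arrays, 3 on some and 1 on none. The 15 cover 8 of the 9 genes, with Inhba the gene missing. Higher mean log2 values on the labelled Tfrc-null arrays were found for 11 and lower ones for 8, with a median log2 difference of 0.11 against 0.02 over all probe sets. Groups did not overlap for 3 higher and 3 lower member probe sets, where 18.3% of all probe sets were higher and 15.2% lower without overlap. A difference of at least 2-fold without overlap was seen for 1 higher member probe set (Fst) and 0 lower ones, against 0.823% and 1.56% of all probe sets. Apart from the leading Fst probe set, differences ran from -0.43 to 0.31. With limma over all 45101 probe sets, 0 (0%) passed an adjusted p of 0.05. An unadjusted p under 0.05 was found for 3260 (7.23%), and the smallest adjusted p was 0.133. That unadjusted count moved in both directions when 1 array was left out. Such a fit has a lone array in a group, whose spread is assumed to be that of the other group, so its counts are not given.

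The genes whose values followed Fst most closely over the 4 arrays were Ralyl, Dlk1, Ccn3, Ifi202b and Chodl. Likeness was the root-mean-square difference of log2 values, each centred on its own mean, and it was 0.16 for Ralyl and Dlk1, 0.20 for Ccn3 and 0.24 for the other 2. Ralyl read 63.0 and 63.4 on the labelled Tfrc-null arrays and 6.71 and 12.3 on the wildtype arrays. Dlk1, an imprinted gene of progenitor and mesenchymal cells, read 1185 and 1543 on the labelled Tfrc-null arrays and 209.4 and 378.8 on the wildtype arrays. Ccn3, which encodes a matricellular protein, read 315.7 and 354.6 on the labelled Tfrc-null arrays and 59.7 and 88.8 on the wildtype arrays. With 4 arrays such likeness says little more than that these genes also differ between the groups by a similar amount. For Inhbb the closest were Rab11fip3, Prelid3a, 1700034P13Rik, Kif26a and Cd300a, at 0.02 to 0.04.

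The measured genes beside Fst on its chromosome did not share its difference. They were taken in the order of a RefSeq gene table (assembly GRCm38.p6), 4 on each side, and were chosen after the value of Fst was seen. Their log2 differences ran from -0.39 to 0.24. Ndufs4, a complex I subunit gene next to Fst, read 712.8 and 693.6 on the labelled Tfrc-null arrays and 662.5 and 599.3 on the wildtype arrays. On the other side, 4930544M13Rik exceeded the control level on no array. Beyond it, Mocs2, a molybdenum cofactor gene, had a log2 difference of 0.24 (SE 0.20).

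**Figure D3:**
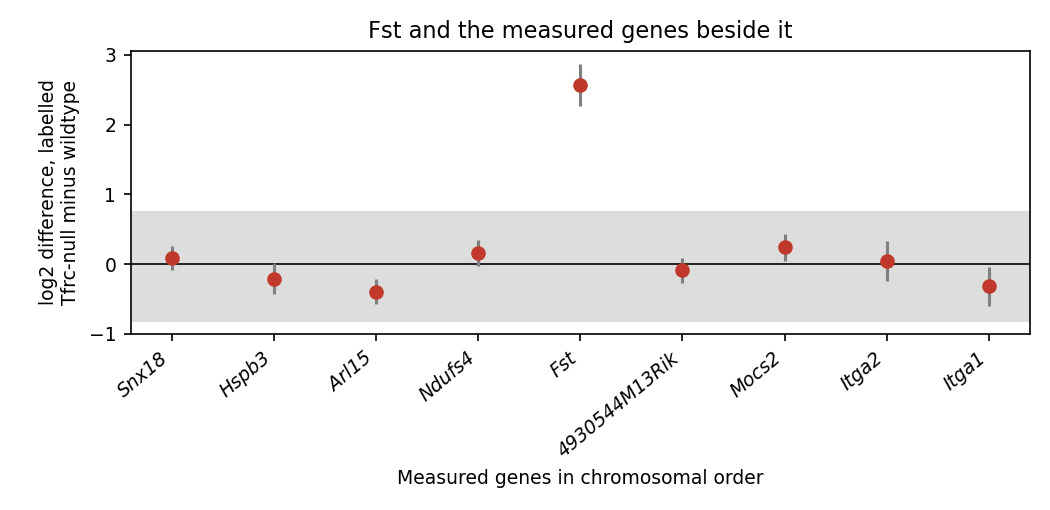
Difference on the log2 scale (labelled Tfrc-null minus wildtype) of Fst and the 4 measured genes on each side of it in chromosomal order, with the limma standard error as a bar. The grey band is the one from -0.82 to 0.74 over all genes. Fst stands at 2.57 and its neighbours between -0.39 and 0.24.

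The remaining genes of the pathway were read from 5 lists: other ligands, other receptors and co-receptors, other proteins with follistatin domains, SMADs with their regulators, and genes known to respond to activin or TGF-beta in other cells. Of their 73 genes, 70 were measured. With limma, 0 passed in either direction, against the 0% of all probe sets given above, and 5 had an unadjusted p under 0.05, or 7.14%, where 7.23% of all probe sets did. The 5 are counted over leading probe sets, 1 per gene. A separate limma fit on leading probe sets alone gave 1459 of 18194 genes an unadjusted p under 0.05. By leading probe set, 24 of the 70 lay higher and 7 lower without overlap, which is 34.3% and 10%, where 20.6% of all genes were higher and 14.3% lower. At least 2-fold without overlap was seen for 0 of the 70 in either direction, against 1.15% of all genes higher and 1.51% lower.

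Among 11 other ligands, 8 had higher and 3 lower means, but only 7 were above the control level on both arrays of a group, 5 of them higher and 2 lower. Inhbc, Inhbe, Lefty1 and Lefty2 were not. The median log2 difference over the 11 was 0.28 against 0.04 over all genes, and 0.090 with log2(intensity + 16), which damps dim probe sets. The TGF-beta ligands lay higher without overlap. Tgfb3 read 163.2 and 184.5 on the labelled Tfrc-null arrays against 88.6 and 122.8 on the wildtype arrays (log2 difference 0.73, SE 0.24, limma adjusted p = 0.592). Tgfb1 differed by 0.57 (SE 0.20) and Tgfb2 by 0.42 (SE 0.23). Gdf3, a ligand of early embryos, was just above the control level on the labelled Tfrc-null arrays and below it on the wildtype arrays. Inha, named here as a partner of the activin subunits, which encodes the inhibin alpha subunit that pairs with an activin beta subunit to form the antagonist inhibin, read 23.0 and 27.1 on the labelled Tfrc-null arrays and 26.6 and 26.9 on the wildtype arrays, so the groups overlapped.

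The 15 other receptors were split, 8 higher and 7 lower, with a median of 0.04, or 0.11 to 0.17 with any 1 array left out. Amhr2, the receptor of anti-Müllerian hormone, was weak, at 25.6 and 19.8 on the labelled Tfrc-null arrays and 13.5 and 16.6 on the wildtype arrays. Its log2 difference was 0.59 (SE 0.23). Tgfbr3, or betaglycan, the co-receptor that lets inhibin block activin receptors, read 483.7 and 518.3 on the labelled Tfrc-null arrays and 394.5 and 328.0 on the wildtype arrays (0.48, SE 0.20). The decoy receptor Bambi differed by 0.41 (SE 0.18). Eng, an endothelial co-receptor, read 94.3 and 81.7 on the labelled Tfrc-null arrays and 196.5 and 112.6 on the wildtype arrays (-0.76, SE 0.31). Limma adjusted p-values of these 4 were 0.691 to 0.756.

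Of the 14 other follistatin-domain genes, 10 had higher and 4 lower means, with a median of 0.19, or 0.068 with log2(intensity + 16). Spock2, a matrix proteoglycan gene, read 646.8 and 591.1 on the labelled Tfrc-null arrays and 908.9 and 1094 on the wildtype arrays (-0.69, SE 0.20, limma adjusted p = 0.519). Its relative Spock3, dim at 5.75 and 9.34 on the labelled Tfrc-null arrays and 10.2 and 14.6 on the wildtype arrays, differed by -0.73 (SE 0.32). The matricellular genes Smoc1 and Smoc2 differed by 0.63 (SE 0.28) and 0.72 (SE 0.32). Smoc1 was also weak, at 22.9 and 14.5 on the labelled Tfrc-null arrays and 10.8 and 12.8 on the wildtype arrays. The highest of these differences are far below the 2.57 of the leading Fst probe set.

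The SMADs and their regulators showed the narrowest spread of the 5 lists. All 19 were above the control level, 10 had higher and 9 lower means, and log2 differences ran from -0.20 to 0.30 with a median of 0.02. The 4 with the smallest p were Ski, a repressor of SMAD transcription, at 0.27 (SE 0.20), Smad9 at 0.22 (SE 0.18), the inhibitory Smad6 at 0.30 (SE 0.25) and the ubiquitin ligase gene Smurf2 at 0.19 (SE 0.18). Their limma adjusted p-values were 0.919 to 0.956. Smad9 was dim, at 11.4 and 10.5 on the labelled Tfrc-null arrays and 9.64 and 9.13 on the wildtype arrays. The last value was close to the control level of that array, 9.08.

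Among 11 responsive genes, 9 had higher and 2 lower means, with a median of 0.27. Timp1, an inhibitor of metalloproteinases, read 112.8 and 196.4 on the labelled Tfrc-null arrays and 73.6 and 85.0 on the wildtype arrays (0.91, SE 0.31, limma adjusted p = 0.627). The matrix genes Lox and Fn1 differed by 0.42 (SE 0.20) and 0.41 (SE 0.20) and the AP-1 gene Junb by 0.42 (SE 0.25). Several of these genes are also made at high level by mesenchymal cells, whose markers also differed between these arrays, as described next. Any part of such cells in the differences of the responsive genes was not tested.

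**Figure D4:**
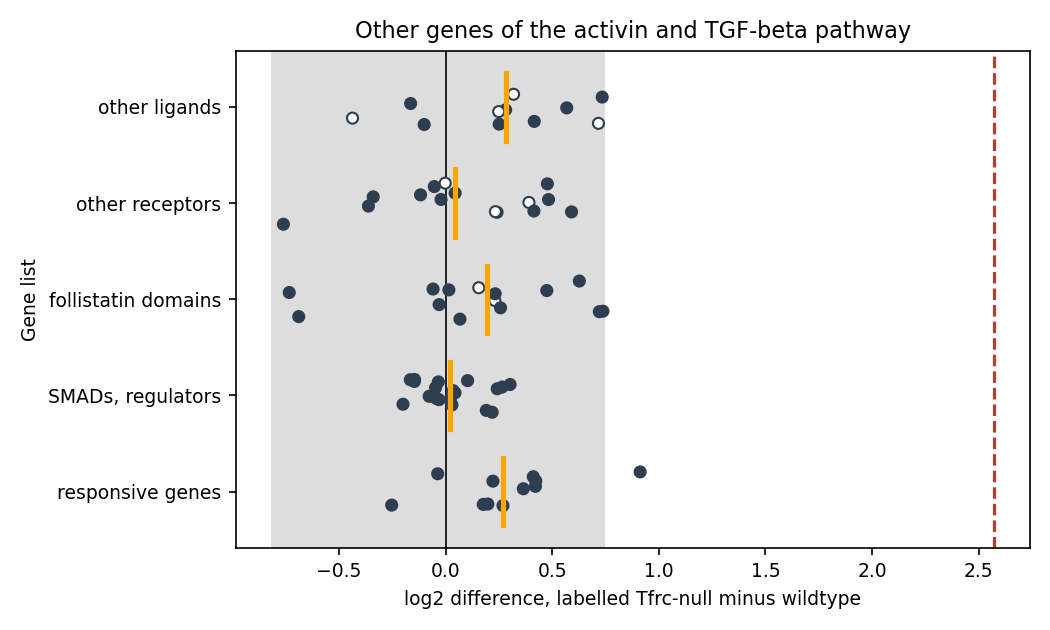
Difference on the log2 scale (labelled Tfrc-null minus wildtype) of each measured gene in the 5 pathway lists, 1 point per gene. Open points were not above the control level on both arrays of either group, orange bars are list medians, the grey band is the one from -0.82 to 0.74 over all genes and the dashed line is the leading Fst probe set at 2.57. Timp1 at 0.91 is the highest point and SMADs with their regulators lie closest together.

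Cell type markers differed between the groups on the same arrays, and their part in the Fst difference was not tested. All 10 stromal and mesenchymal markers had higher means on the labelled Tfrc-null arrays, 7 without overlap, where 20.6% of all genes were. Their median log2 difference was 0.75. Their summed intensity was 10608 to 12723 on the labelled Tfrc-null arrays and 5641 to 9911 on the wildtype arrays. Such sums, here and below, weigh the brightest probe sets of a list most. Postn, Dcn and Lum, genes of matrix proteins, differed by 1.59 (SE 0.40), 1.57 (SE 0.45) and 1.49 (SE 0.26). Each was below the 2.57 of the leading Fst probe set but above the 1.38 of both Fst probe sets averaged.

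All 10 markers of the ureteric epithelium (bud and collecting duct), the tissue on which activin acts in organ culture, had lower means, 6 of them without overlap, where 14.3% of all genes were. Their summed intensity was 2826 to 3571 on the labelled Tfrc-null arrays and 7104 to 7614 on the wildtype arrays. Ret, the receptor tyrosine kinase of the bud tip, read 104.3 and 65.1 on the labelled Tfrc-null arrays and 1057 and 789.6 on the wildtype arrays. Wnt9b and Calb1 differed by -2.64 (SE 0.45) and -2.02 (SE 0.29).

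Endothelial markers had lower means in 8 of 8, 5 of them without overlap, where 14.3% of all genes were. Their sums were 1905 to 2400 on the labelled Tfrc-null arrays and 3022 to 3395 on the wildtype arrays. The largest differences were Sox17 at -1.51 (SE 0.23), Pecam1 at -1.18 (SE 0.74) and Kdr at -0.996 (SE 0.27). The groups overlapped for Pecam1. The 6 erythroid markers measured all had lower means, 5 of them without overlap, against the same 14.3%. Their sums were 84.2 to 104.3 on the labelled Tfrc-null arrays and 1368 to 4136 on the wildtype arrays. The largest of these differences were those of Hbb-y, Alas2 and Slc4a1.

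Differences in the other marker lists were smaller. Of the genes given with a difference here, the groups overlapped for Meox1, Wt1, Slc12a1, Umod, Cnn1, Cd68 and Star. Differences of Meox1, Slc12a1 and Umod were 0.01, 0.11 and 0.26 for replicate number 1, but -0.89, -1.39 and -1.35 for number 2. Cap mesenchyme markers had lower means in 6 of 8 (Cited1 -0.79, Meox1 -0.44, Wt1 -0.39), with sums of 3201 to 3218 on the labelled Tfrc-null arrays and 3280 to 4247 on the wildtype arrays. Tubule and podocyte markers were lower in 6 of 9 (Slc12a1 -0.64, Umod -0.55, but Nphs1 0.93), with sums of 5164 to 5508 on the labelled Tfrc-null arrays and 5027 to 6600 on the wildtype arrays. Smooth muscle markers were split 3 and 3 (Des 0.63, Myh11 -0.63, Cnn1 -0.36), with sums of 2951 to 2987 on the labelled Tfrc-null arrays and 2762 to 3061 on the wildtype arrays. Leukocyte markers were higher in 4 of 6 (Cd68 0.41, but Ptprc -0.73 and Lyz2 -0.72), with sums of 3087 to 3273 on the labelled Tfrc-null arrays and 3131 to 3466 on the wildtype arrays. Adrenal and gonad markers, included because gonads make inhibin, activin and follistatin, were higher in 4 of 7 (Mc2r 1.22, Star 0.57). Nr5a1 was above the control level on both wildtype arrays and on neither labelled Tfrc-null array. The sums were 155.6 to 163.0 on the labelled Tfrc-null arrays and 102.2 to 112.9 on the wildtype arrays. Mc2r made up most of that gap, at 80.3 and 78.9 on the labelled Tfrc-null arrays and 40.7 and 28.9 on the wildtype arrays. The steroid enzyme genes Hsd3b1 and Cyp17a1 exceeded the control level on no array.

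**Figure D5:**
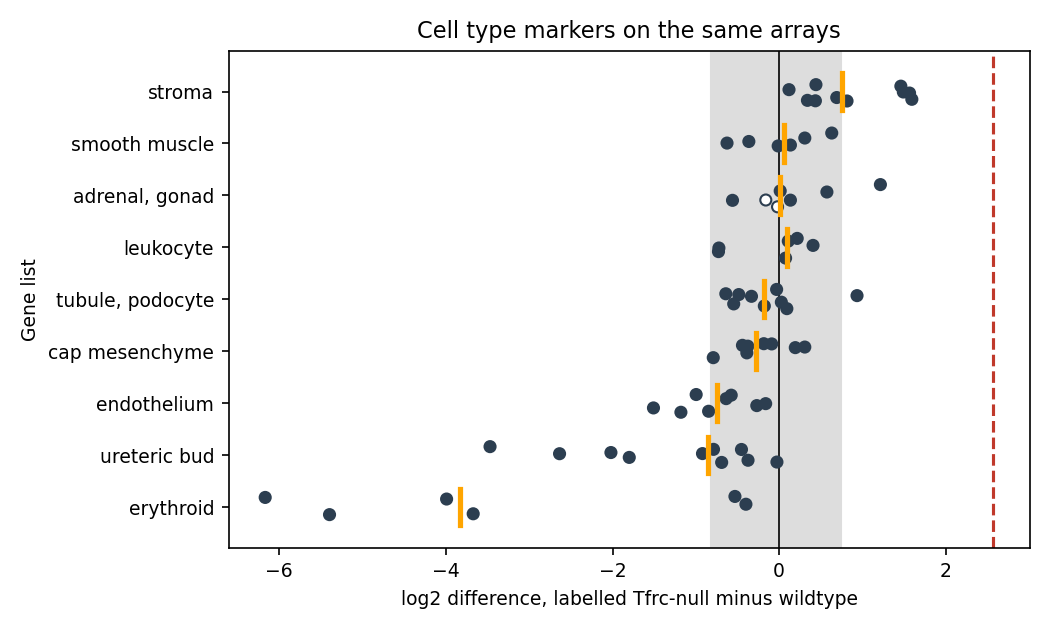
Difference on the log2 scale (labelled Tfrc-null minus wildtype) of each cell type marker, 1 point per gene, with the same point styles, band and dashed Fst line as in the plot of the pathway lists. Stromal markers have a median of 0.75, ureteric bud markers of -0.85 and erythroid markers of -3.83. No marker reaches the 2.57 of the leading Fst probe set on the higher side, while both Fst probe sets averaged give 1.38.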

How the data were processed

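Total RNA (50 ng) of sorted cells was amplified, biotin-labelled and hybridised to Affymetrix mouse arrays, per the labels' protocols. The authors deposited 1 intensity per probe set and array on a linear scale. RMA, which adjusts background and equalises array distributions, is named per the submitters' processing notes, and its version, its settings and the return to a linear scale are not given in the sources used here. Depth has no meaning here: the number of arrays, 2 per group, limits the precision.

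Intensities were taken to log2 with no pseudocount, filter or further normalization. Differences are mean log2 of labelled Tfrc-null minus wildtype arrays, from limma 3.58.1 in R 4.3.3 (lmFit, eBayes) over all 45101 probe sets. Benjamini-Hochberg adjustment was over all of them. The code was checked on simulated arrays with independent noise, which does not measure power or error rate on these arrays. For 2 arrays against 2, the smallest two-sided p of an exact permutation test is 0.333. Probe sets with 1 gene symbol (34958) were named by Entrez identifier through RefSeq, where 18033 of 18194 genes matched. Where a gene has several probe sets, the one of highest mean log2 leads it.

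The members and lists were chosen with earlier results of these data known. Named are all members, up to 4 genes of each pathway list by smallest p and up to 3 of each marker list by largest difference, both among genes above the control level on both arrays of a group, and the 5 genes nearest to Fst and to Inhbb. Inha, the ligands and steroid enzyme genes named for dim signal and the neighbours of Fst fall outside this rule and were chosen after their values were seen. Alternatives were median centring, a filter on dim probe sets, log2(intensity + 16), an intensity trend, the replicate number as a block, other gene summaries and leaving out each array.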

Additional observations from a re-analysis of the deposited data

How the results depend on the processing

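The log2 difference of the leading Fst probe set stayed between 2.21 and 2.94 when any 1 array was left out, was 2.60 with each array centred on its median and 2.25 with log2(intensity + 16), and was 1.38 with the mean of its probe sets. With that mean, Acvr1 turned to 0.046 and Acvr1b to 0.10, the list medians were -0.015 for SMADs with regulators and 0.15 for responsive genes. Median centring gave -0.076 for Acvr1b. With log2(intensity + 16) the medians were 0.090 for other ligands and 0.068 for follistatin-domain genes, and 155 probe sets were at least 2-fold higher and 317 lower without overlap, against 371 and 705. Leaving out 1 array gave 502 to 958 higher and 852 to 1116 lower. The highest of both came without wildtype replicate 2. Non-overlap is easier to meet with fewer arrays, so these counts are not like for like with 371 and 705. Leaving out 1 array also gave medians of 0.11 to 0.17 for other receptors, 0.047 to 0.33 for follistatin-domain genes, 0.0076 to 0.11 for SMADs with regulators and 0.23 to 0.35 for responsive genes. Fstl1 ran from -0.02 to 0.24, Fstl3 from -0.01 to 0.50, Acvr1 from -0.72 to -0.06 and Acvr2b from 0.08 to 0.48 under the same omissions. Limma passed 0 probe sets in the fit as described and 3 with an intensity trend, none of them a member. Apart from that effect of fewer arrays on non-overlap, the cause of these shifts was not tested. Of 149 alternative values, 123 moved by no more than the replicate SD or, for counts, by 1.5 times at most. This tally does not measure stability. Leaving out 1 of 2 arrays cannot move a member's difference by more than that SD, and the replicate block keeps every difference by construction.

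The labels do not say what a replicate number stands for. Deviations of same-numbered arrays from their group means correlated at 0.49 over probe sets, which are not independent. With the replicate number as a block, 0 probe sets passed, 5727 had an unadjusted p under 0.05 against 3260 without it, the Fst difference stayed 2.57 by construction and its SE was 0.18 in place of 0.30.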
